A study of Homo sapiens with 6 samples.

Results

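The genes described here encode the proteases with which tumor cells cut matrix and free surface proteins, together with the inhibitors that hold those proteases in check. The 44 members were taken by gene symbol from these protein families, and the list was drawn up with earlier results of these data known. Of these, 43 had a probe set of their own on the array, among 11963 genes that did. Expression of SERPINB2 is not analysed here. The 43 genes had 75 probe sets of the 22215 tested, 27 genes with 1 probe set and 16 with several, up to 4.

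SUM159 is a breast cancer cell line, of the triple-negative type, that lacks the estrogen, progesterone and HER2 receptors. Cells carried either empty pcDNA 3.1 vector or the same vector with SH3GL2 (endophilin A1), a membrane-bending protein of endocytosis that the study examined as a suppressor of metastasis. Both stable transfectants were kept under G418, and the comparison asks which transcripts differ once SH3GL2 is introduced. Each group had 3 Affymetrix U133A 2.0 arrays of total RNA. Whether a transfectant was 1 clone or several, and whether the 3 arrays came from separate cultures, is not given in the sources used here, so the p-values measure the spread between arrays, which may be technical.

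Matrix metalloproteinases (MMPs) digest collagens, laminins and other matrix proteins and are blocked by the tissue inhibitors of metalloproteinases (TIMPs) and by the membrane protein RECK. ADAMs shed growth factors and receptors from the cell surface, and ADAMTS enzymes are their secreted, matrix-bound relatives. The plasminogen activators PLAT and PLAU turn plasminogen into plasmin and are held back by serpins, while cathepsins, mainly lysosomal, can be secreted by tumor cells and are inhibited by cystatins.

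Signals are on the deposited log2 scale, where 1 unit is a doubling of signal. A reference for absent transcripts came from 76 probe sets of 54 genes typical of other organs, whose signals had their median at 5.00 and their 95th percentile at 7.15. The array medians ran from 6.97 to 7.02, and 47.5% to 48.1% of probe sets lay above that percentile. All 7 markers of a mesenchymal triple-negative line lay above it (group means from 10.09 to 14.68), as did 1 of 8 luminal and hormone receptor genes (GATA3), and none of the 5 leukocyte, 4 endothelial, 3 adipocyte or 3 muscle genes measured. Of the 7 mesenchymal markers, 3 were lower with SH3GL2 by limma, AXL (-0.49, adjusted p = 0.00011), CAV1 (-0.30, adjusted p = 0.00267) and SPARC (-0.25, adjusted p = 0.0401). CD44 (-0.20) and VIM (-0.11) had every SH3GL2 array lower without passing, and EGFR and MYC overlapped. The part of this shift in the member changes was not tested. The probe set for SH3GL2 itself averaged 3.22 ± 0.04 (SD, n = 3) in the control arrays and 3.26 ± 0.09 (SD, n = 3) in the arrays of SH3GL2 transfectants, both under the reference median. It therefore showed no excess of SH3GL2 transcript in the arrays labelled SH3GL2. The study itself reports that SH3GL2 was stably overexpressed in SUM159 cells. Whether this probe set covers the inserted sequence is not given in the sources used here, and "SH3GL2 arrays" means the arrays so labelled.

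Few members differed between the groups, and those that did went both ways. PLAT, CTSC, CTSH and CSTA rose in the SH3GL2 cells, and ADAM9, ADAMTS1 and 2 probe sets of TIMP3 fell. By limma at an adjusted p under 0.05, 4 of 75 member probe sets were higher, where 1.99% of all probe sets were, and 4 were lower, where 2.18% of all were. In either direction 8 passed (10.7%, against 4.17% of all). At an unadjusted p under 0.05, 11 member probe sets were higher (14.7%, against 8.24% of all) and 10 lower (13.3%, against 7.62%). Both directions together made up 28.0%, against 15.9% of all. All 4 TIMP3 probe sets were among the 10 lower. Groups did not overlap for 19 of the 75 (25.3%, against 19.4% of all), 10 with SH3GL2 higher (13.3%, against 10.5%) and 9 with SH3GL2 lower (12.0%, against 8.97%). The median log2 fold change was 0.01 over the member probe sets and 0.01 over all probe sets, and the median size of the change was 0.10 and 0.08. In bulk RNA such as this, fewer cells of a type and less RNA per cell cannot be told apart. An exact two-sided permutation test of 3 arrays against 3 cannot go below p = 0.1 for any single gene.

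**Figure D1:**
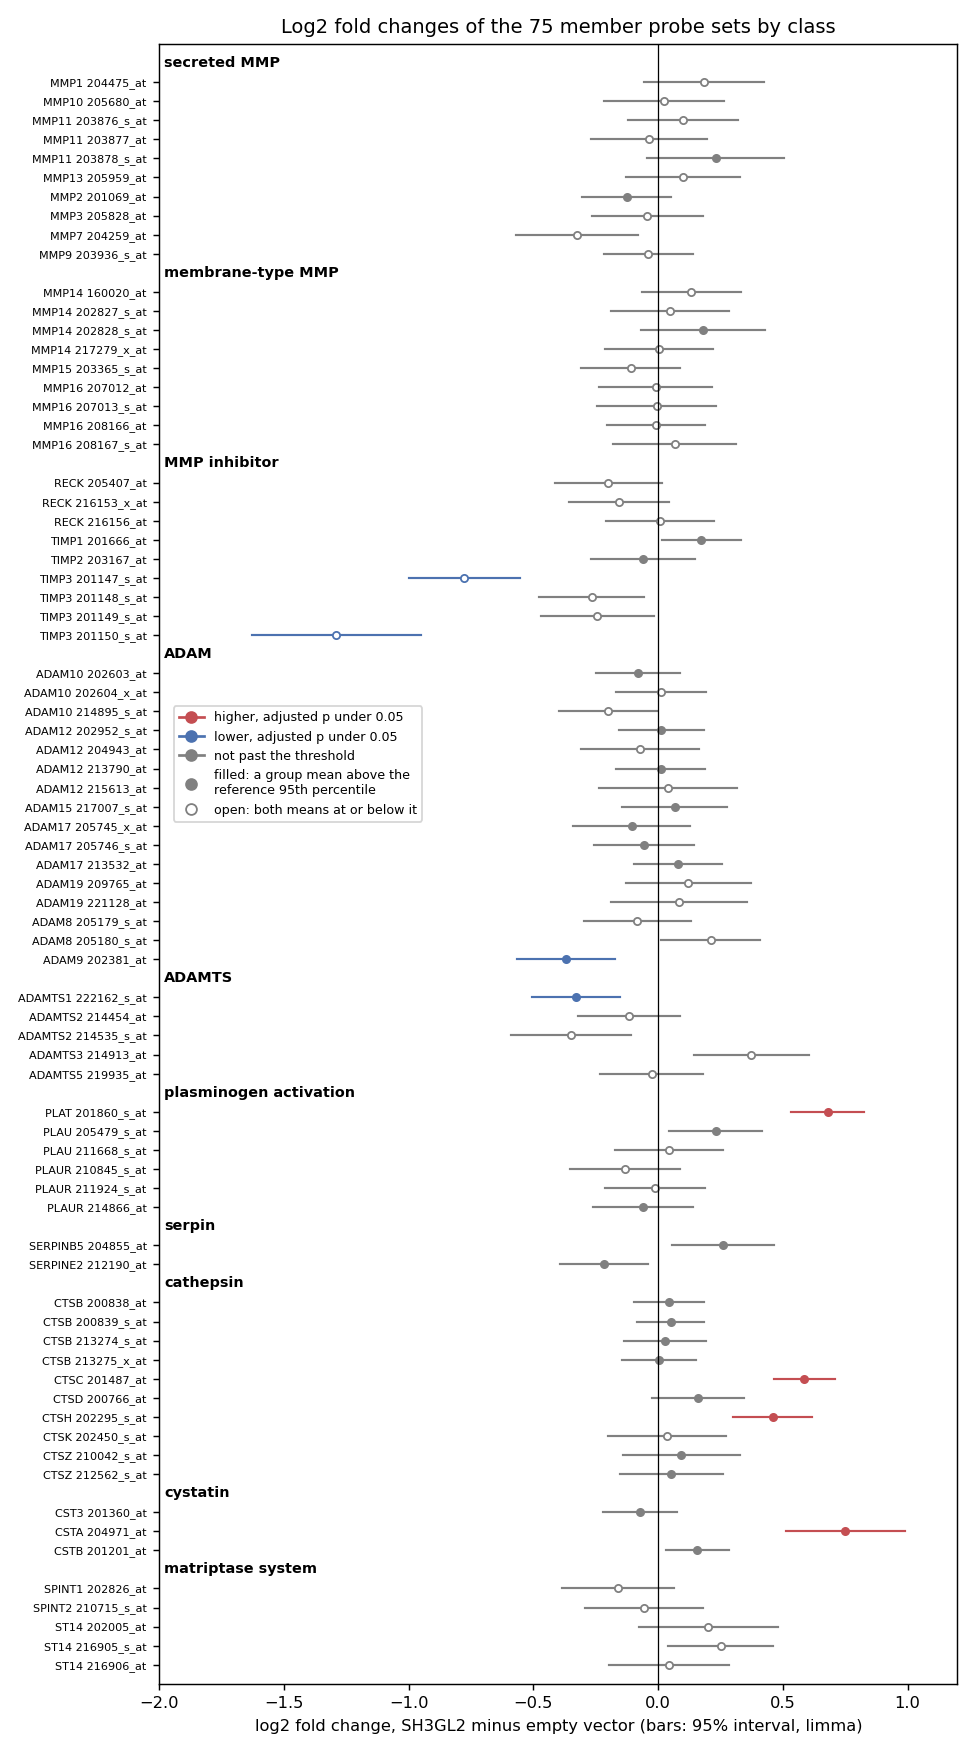
Log2 fold change (SH3GL2 minus empty vector, horizontal axis) of each of the 75 member probe sets, grouped by class, with 95% intervals from limma. The points for PLAT, CTSC, CTSH and CSTA (red) lie at 0.46 to 0.75, those for ADAM9, ADAMTS1 and 2 TIMP3 probe sets (blue) at -1.29 to -0.33, and the MMPs all lie between -0.33 and 0.23.

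No MMP passed the test. The 8 secreted and 3 membrane-type MMPs had 19 probe sets. Of these, limma called 0 in either direction, and 1 had an unadjusted p under 0.05 (MMP7). A one-way analysis of variance called 0 after adjustment. It called only 33 higher and 44 lower of all 22215 probe sets, so 0 was likely for any 19. The study lists analysis of variance among its tests without tying it to the arrays. Over all probe sets 4.17% were called and 15.9% had an unadjusted p under 0.05, so 0 calls in 19 lies near the background. Their log2 fold changes ran from -0.33 to 0.23, and the 95% intervals of all 19 stayed between -0.57 and 0.50. The collagenases MMP1 and MMP13 and the stromelysins MMP3 and MMP10 had both group means under the reference median, with log2 fold changes of -0.04 to 0.18. MMP9, a gelatinase that cuts type IV collagen, read 6.98 and 6.94, just under the reference 95th percentile.

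MMP2, the other gelatinase, read 8.37, 8.50 and 8.46 with empty vector and 8.23, 8.27 and 8.45 with SH3GL2. The groups overlapped (log2 fold change -0.13 with a standard error of 0.08, limma adjusted p = 0.523). MMP14, the membrane-anchored enzyme that activates pro-MMP2, read 7.79, 7.55 and 7.28 against 7.78, 7.73 and 7.65 on the probe set with the highest signal. These ranges overlapped as well (0.18, standard error 0.11, adjusted p = 0.513), and its other 3 probe sets gave 0.003 to 0.13. For MMP7, or matrilysin, the arrays read 6.05, 5.83 and 6.09 against 5.48, 5.70 and 5.81. All 3 SH3GL2 arrays lay below the empty vector arrays by a narrow margin, at signals under the reference 95th percentile (-0.33, standard error 0.11, adjusted p = 0.152).

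Among the MMP inhibitors TIMP3, which binds the matrix and also blocks ADAM17, fell on 2 of its 4 probe sets, both with low signal. On probe set 201150_s_at TIMP3 read 4.89, 4.71 and 5.46 with empty vector and 3.71, 3.65 and 3.83 with SH3GL2. On 201147_s_at it read 4.86, 4.86 and 4.65 against 3.88, 4.13 and 4.03. Every SH3GL2 array was lower on both, by 1.29 (standard error 0.16, limma adjusted p = 0.000315) and 0.78 (standard error 0.10, adjusted p = 0.000616) on the log2 scale. Both means of 201147_s_at and the SH3GL2 mean of 201150_s_at were under the reference median of 5.00, and no mean of either reached the reference 95th percentile, so no fold is given. With signals floored at that median the log2 fold changes became 0 (adjusted p = 1) and -0.15 (adjusted p = 0.801).

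The other TIMP3 probe sets gave higher signals and smaller differences. On 201148_s_at the arrays read 6.74, 6.76 and 6.59 against 6.49, 6.51 and 6.29, and on 201149_s_at 6.08, 6.0 and 5.80 against 5.74, 5.80 and 5.61. The SH3GL2 arrays lay wholly below on the former and touched the empty vector range at 5.80 on the latter, and neither passed limma (-0.27, adjusted p = 0.179, and -0.24, adjusted p = 0.268). The log2 fold change on 201148_s_at minus that on 201150_s_at was 1.02, with no overlap between groups (exact permutation p = 0.1, the smallest possible). For 201148_s_at minus 201149_s_at it was -0.02 (exact permutation p = 0.7). All 4 probe sets pointed down. With their mean taken as the value of the gene, TIMP3 fell by 0.64 on the log2 scale (limma adjusted p = 0.000573). That mean includes the low-signal probe sets above, which gave the larger falls.

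**Figure D2:**
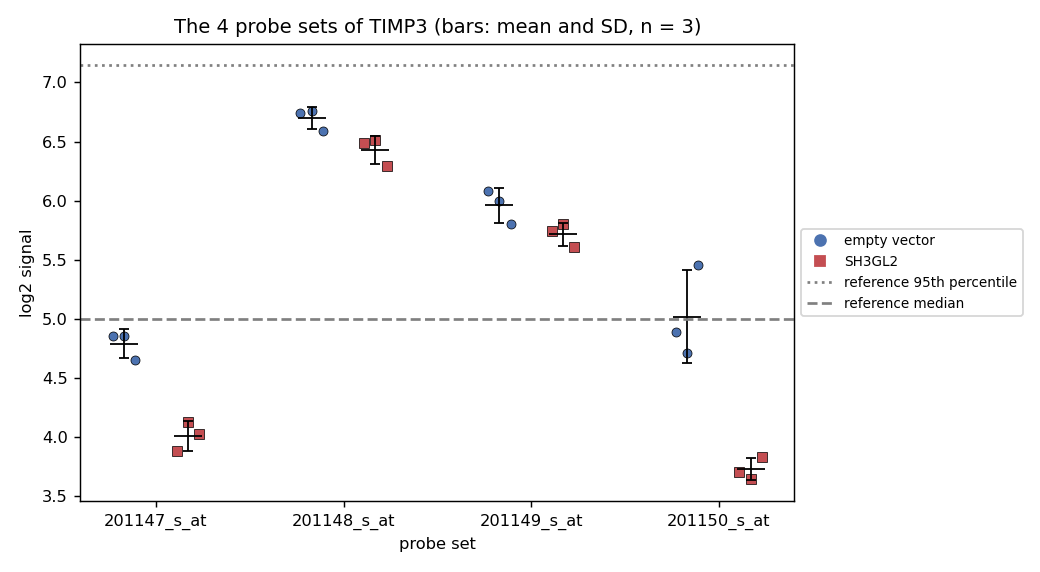
Log2 signal (vertical axis) of the 4 TIMP3 probe sets in each array, empty vector beside SH3GL2, with mean and SD (n = 3), and the reference median and 95th percentile as lines. The SH3GL2 arrays lie below the empty vector arrays on 3 probe sets and meet them at 5.80 on 201149_s_at, and no mean reaches the 95th percentile of 7.15.

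TIMP1, a soluble inhibitor of most secreted MMPs, read 10.68, 10.61 and 10.55 against 10.68, 10.95 and 10.73. SH3GL2 replicate 1 tied with the highest empty vector array (0.17, standard error 0.07, limma adjusted p = 0.259). TIMP2, which also takes part in pro-MMP2 activation, had group means of 7.70 and 7.64 (-0.06, adjusted p = 0.840). The 3 RECK probe sets gave -0.20 to 0.01 with adjusted p from 0.359 to 0.985.

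The TIMP3 promoter is shown because all 4 probe sets of this gene were lower with SH3GL2, 2 of them past the threshold at low signal only. It is the stretch of 250 bases before the start of the gene, chr22:32801455-32801704 on the plus strand of GRCh38.p14, from RefSeq, with 72.4% G or C. Capitals mark matches on either strand to the GC box letters GGGCGG (5 matches) and to the CCAAT box letters (1 match).
TIMP3: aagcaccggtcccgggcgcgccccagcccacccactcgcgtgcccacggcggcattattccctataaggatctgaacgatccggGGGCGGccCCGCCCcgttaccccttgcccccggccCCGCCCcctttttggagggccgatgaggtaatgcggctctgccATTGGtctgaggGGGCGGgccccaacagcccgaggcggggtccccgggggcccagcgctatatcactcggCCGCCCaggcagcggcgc

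Of the 7 ADAMs 1 passed the test, on 1 of 16 probe sets. That lies near the background of 4.17% of all probe sets called. ADAM9, a membrane sheddase, read 10.73, 10.65 and 10.84 with empty vector and 10.61, 10.24 and 10.26 with SH3GL2. All 3 SH3GL2 arrays were lower, replicate 1 just under the lowest empty vector array, and ADAM9 fell by 0.37 on the log2 scale (standard error 0.09, limma adjusted p = 0.0395), or 1.29-fold. This call was narrow. It was lost without any 1 of 5 arrays, with adjusted p up to 0.192 without SH3GL2 replicate 3, and was kept only without SH3GL2 replicate 1 (adjusted p = 0.0032).

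ADAM10, the sheddase of Notch and cadherins, read 10.57, 10.75 and 10.72 against 10.75, 10.45 and 10.60 on its probe set with the highest signal. The arrays of the groups were interleaved (-0.08, standard error 0.08, limma adjusted p = 0.713). A dimmer ADAM10 probe set, 214895_s_at, read 6.97, 7.12 and 7.05 against 6.83, 6.95 and 6.76, with no overlap (-0.20, adjusted p = 0.301). ADAM17, which sheds TNF and ligands of the EGF receptor, gave -0.11 to 0.08 on 3 probe sets, and ADAM12 gave -0.07 to 0.04 on 4. ADAM8 read 6.70, 6.83 and 6.76 against 7.01, 6.85 and 7.06 on 205180_s_at, all SH3GL2 arrays above (0.21, adjusted p = 0.280), while its other probe set gave -0.08. ADAM15 and ADAM19 gave 0.07 to 0.12.

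ADAMTS1, which cleaves the proteoglycans versican and aggrecan, was the other metalloprotease that passed. It read 7.77, 7.65 and 7.72 with empty vector and 7.40, 7.32 and 7.43 with SH3GL2. The groups lay well apart, and ADAMTS1 fell by 0.33 (standard error 0.08, limma adjusted p = 0.0383), or 1.26-fold. It too was a narrow call, with adjusted p from 0.079 to 0.111 when any 1 of the 6 arrays was left out.

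The procollagen N-proteinases ADAMTS2 and ADAMTS3 did not pass. ADAMTS2 read 5.50, 5.24 and 5.17 against 4.92, 5.08 and 4.86 on 214535_s_at, with all SH3GL2 arrays lower (-0.35, limma adjusted p = 0.114). On its brighter probe set, 214454_at, the groups overlapped (-0.12, adjusted p = 0.636). ADAMTS3 read 4.50, 4.66 and 4.84 against 5.04, 4.96 and 5.12. All its SH3GL2 arrays were higher (0.37, adjusted p = 0.0759), and without empty vector replicate 3 the adjusted p was 0.0366, at signals near the reference median. The aggrecanase ADAMTS5 had both means under that median.

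**Figure D3:**
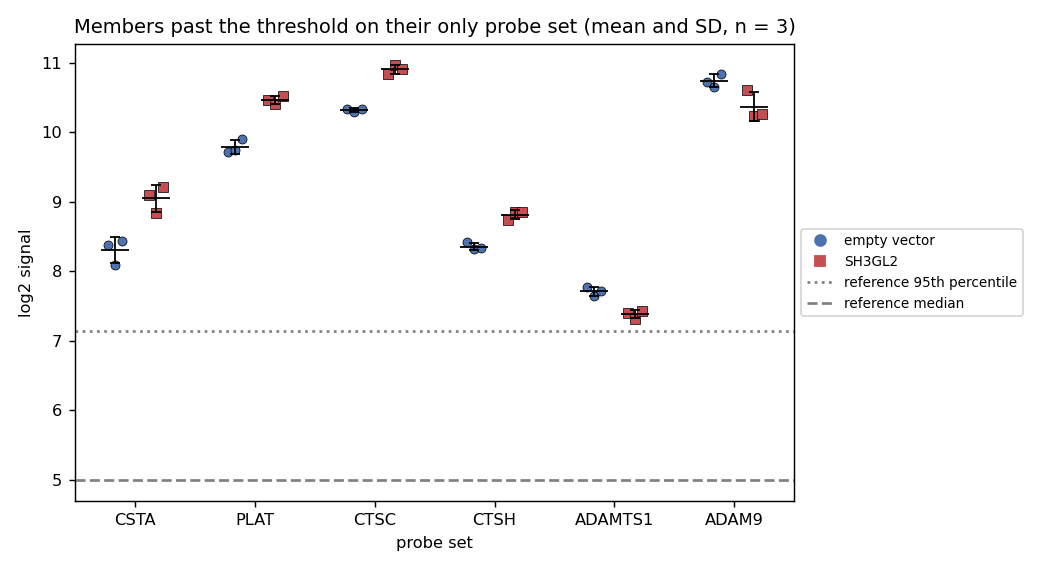
Log2 signal (vertical axis) in each array of the 6 genes that passed on their only probe set, empty vector beside SH3GL2, with mean and SD (n = 3) and the reference median and 95th percentile as lines. Arrays of the groups do not overlap for any of the 6, and PLAT, CTSC, CTSH and CSTA are higher and ADAM9 and ADAMTS1 lower with SH3GL2.

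In the plasminogen system PLAT rose and its relative PLAU did not pass the test. PLAT, tissue plasminogen activator, read 9.71, 9.74 and 9.90 with empty vector and 10.46, 10.41 and 10.52 with SH3GL2. All SH3GL2 arrays lay well above the highest empty vector array, and PLAT rose by 0.68 on the log2 scale (standard error 0.07, limma adjusted p = 6.58e-05), or 1.60-fold. PLAU, the urokinase that works at its surface receptor PLAUR, read 7.39, 7.52 and 7.52 against 7.60, 7.79 and 7.73. These groups did not overlap either, but the difference of 0.23 (standard error 0.09, adjusted p = 0.189) did not pass. The dimmer PLAU probe set gave 0.04, and the 3 PLAUR probe sets gave -0.13 to -0.01.

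Both serpins among the members lay above the reference and did not pass. SERPINB5, or maspin, read 8.99, 9.22 and 9.10 against 9.29, 9.57 and 9.23, with the lowest SH3GL2 array just over the highest empty vector array (0.26, limma adjusted p = 0.171). SERPINE2, or protease nexin-1, an inhibitor of thrombin and plasminogen activators, read 9.61, 9.44 and 9.63 against 9.37, 9.20 and 9.46. Its ranges overlapped slightly and the difference pointed the other way (-0.22, adjusted p = 0.195).

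Of 6 cathepsins, 2 rose and 4 did not pass, with 2 of 10 probe sets higher, where 1.99% of all were. CTSC, the dipeptidyl peptidase that activates serine proteases of granules, read 10.34, 10.29 and 10.33 with empty vector and 10.84, 10.97 and 10.91 with SH3GL2. The arrays within each group lay close together and the groups were far apart, and CTSC rose by 0.59 (standard error 0.06, limma adjusted p = 5.75e-05), or 1.5-fold. CTSH, a cysteine cathepsin with aminopeptidase activity, read 8.42, 8.32 and 8.33 against 8.74, 8.86 and 8.85. All SH3GL2 arrays were again higher, by 0.46 (standard error 0.07, adjusted p = 0.00244), or 1.38-fold. CTSC was the only member to pass under the analysis of variance (adjusted p = 0.0467). Both genes are also expressed in leukocytes, and the 5 leukocyte markers had group means of 3.35 to 6.32, under the reference 95th percentile. Any part of leukocytes in both changes was not tested.

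CTSB, a cathepsin often tied to invasion, had 4 probe sets above the reference with log2 fold changes of 0.003 to 0.05 and adjusted p from 0.785 to 0.990. On the brightest of them it read 10.30, 10.23 and 10.22 against 10.21, 10.35 and 10.34, with the groups interleaved. The aspartic protease CTSD gave 0.16 (adjusted p = 0.404), and CTSZ gave 0.09 and 0.05. CTSK, known for digesting collagen in bone, gave 0.04 at a signal under the reference 95th percentile.

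The promoters of both cathepsins that rose are shown for comparison. Each is the stretch of 250 bases before the start of the gene in RefSeq on GRCh38.p14, chr11:88337737-88337986 on the minus strand for CTSC and chr15:78945047-78945296 on the minus strand for CTSH. Capitals again mark GC box (GGGCGG) and CCAAT box matches on either strand. G or C made up 58.4% of the CTSC stretch, with 1 GC box and 1 CCAAT box, and 74.4% of the CTSH stretch, with 5 GC boxes and no CCAAT box.
CTSC: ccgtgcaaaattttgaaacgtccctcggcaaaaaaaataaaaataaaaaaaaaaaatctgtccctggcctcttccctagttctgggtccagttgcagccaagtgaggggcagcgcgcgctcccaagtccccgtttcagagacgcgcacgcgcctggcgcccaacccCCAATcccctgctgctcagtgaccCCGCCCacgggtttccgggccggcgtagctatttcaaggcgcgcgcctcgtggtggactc
CTSH: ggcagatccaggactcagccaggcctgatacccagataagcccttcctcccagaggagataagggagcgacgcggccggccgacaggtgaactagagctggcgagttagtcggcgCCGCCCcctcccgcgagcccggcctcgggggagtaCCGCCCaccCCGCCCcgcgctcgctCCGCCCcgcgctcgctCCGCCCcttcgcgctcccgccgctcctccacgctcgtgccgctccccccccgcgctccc

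The same search was run over the 27 members in the promoter table. Of the genes with a call, TIMP3, CTSC and CTSH were among them, and PLAT, CSTA, ADAM9 and ADAMTS1 were not. Both strands were read, and no motif searched contains another. The AP-1 letters TGANTCA were found in 5 member promoters (18.5%; MMP7, MMP10, PLAUR, SERPINB2 and SERPINB5) and in 6.57% of all 35116 promoters of the same length. The GC box was found in 81.5% of the members and 42.6% of all promoters, the CCAAT box in 33.3% and 32.0%, and the TATA box letters TATAAA in 11.1% and 10.7%. None of the TIMP3, CTSC and CTSH stretches held the AP-1 or TATA letters. A match describes the letters alone, and it was not tested whether any factor binds there.

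Among the cystatins CSTA rose. CSTA, or stefin A, an intracellular inhibitor of cysteine cathepsins that squamous epithelia make in quantity, read 8.38, 8.09 and 8.44 with empty vector and 9.10, 8.84 and 9.22 with SH3GL2. Its groups did not overlap, and it rose by 0.75 (standard error 0.11, limma adjusted p = 0.00138), or 1.68-fold. CSTB, or stefin B, read 12.31, 12.30 and 12.26 against 12.33, 12.57 and 12.44. All SH3GL2 arrays were higher, replicate 1 barely, and it did not pass (0.16, adjusted p = 0.188). CST3, the secreted cystatin C, gave -0.07 (adjusted p = 0.696).

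The matriptase system was dim. ST14, or matriptase, a transmembrane serine protease of epithelia, read 6.53, 6.22 and 5.97 against 6.55, 6.37 and 6.40 on its brightest probe set, with overlap (0.20, limma adjusted p = 0.521). On 216905_s_at, with both means under the reference median, it read 3.80, 3.70 and 4.0 against 4.10, 4.07 and 4.08. These groups did not overlap (0.25, adjusted p = 0.214), and the remaining ST14 probe set gave 0.04. Its inhibitors SPINT1 and SPINT2 gave -0.16 and -0.06, and neither reached the reference 95th percentile. Of the 5 probe sets in this system limma called 0, against 4.17% of all probe sets. By limma 1 had an unadjusted p under 0.05, against 15.9% of all. The analysis of variance called 0, where it called 33 higher and 44 lower of all 22215. Counts from 5 probe sets cannot be told apart from these shares.

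**Figure D4:**
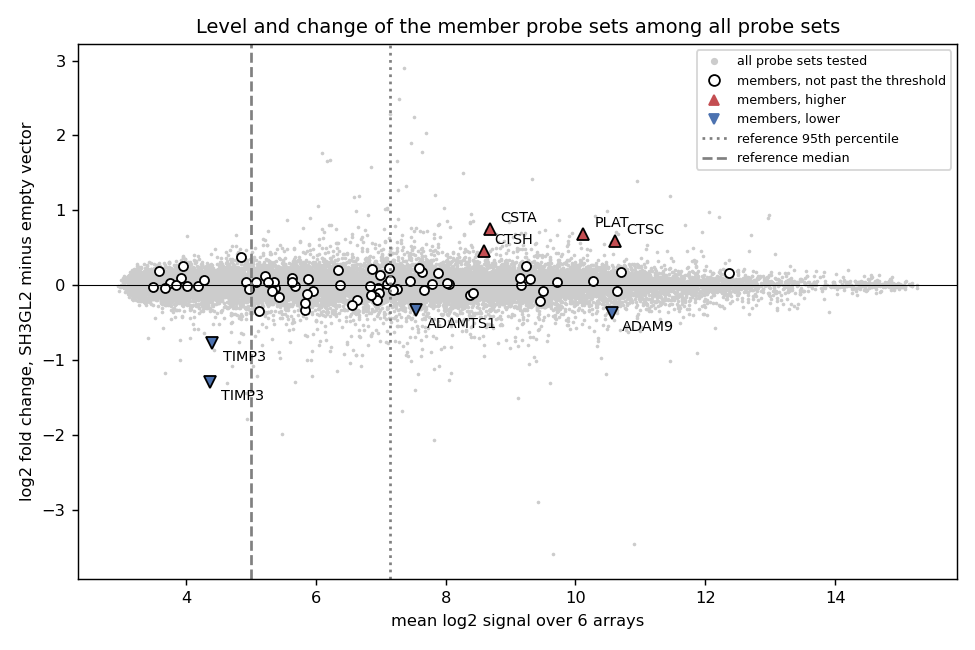
Log2 fold change (SH3GL2 minus empty vector, vertical axis) against mean log2 signal over the 6 arrays (horizontal axis) for each member probe set, over all probe sets tested as gray points, with the reference median and 95th percentile as lines. The 4 members that rose and ADAM9 and ADAMTS1 lie above 7.15, whereas both called TIMP3 probe sets lie below 5.00.

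Within families, the change of a gene with a call was set beside that of a relative on the same arrays, in 6 pairs chosen after the values were seen. For TIMP3 the probe set with the highest mean was used, which itself did not pass. The log2 fold change of PLAT exceeded that of PLAU by 0.45. CTSC and CTSH exceeded CTSB by 0.54 and 0.41, and CSTA exceeded CSTB by 0.59. The ADAM9 change minus that of ADAM10 was -0.29, and the TIMP3 change on 201148_s_at minus that of TIMP1 was -0.44. In all 6 pairs the difference between both genes on each array did not overlap between the groups. The exact permutation p was 0.1 in each, the smallest possible, and 0.1 after adjustment over the 6 pairs. Since the pairs were chosen on these same values, the separation was largely set in advance. It is no test of contrasts within families.

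The 5 lists of other genes of the same systems were read from the same limma fit, 114 genes measured of 129 listed, with 167 probe sets. Of these, 8 were higher and 1 lower (background 1.99% and 2.18% of all probe sets), with a median log2 fold change of 0.02. The 11 other MMPs with TIMP4, the 21 other ADAMs and ADAMTSs and the 17 other cathepsins and cystatins held 0 calls by limma. The analysis of variance also called 0 in them, and only 33 higher and 44 lower among all 22215 probe sets. By limma, 0 of 14, 2 of 33 and 2 of 18 probe sets had an unadjusted p under 0.05 (15.9% of all). Those of the cathepsin list were CTSL (cathepsin L), with arrays of 9.84, 9.84 and 9.77 against 9.52, 9.61 and 9.61, and CTSF (cathepsin F), with 8.05, 7.76 and 7.72 against 8.27, 8.13 and 8.16. Neither overlapped, and they pointed opposite ways (-0.24, adjusted p = 0.0541, and 0.34, adjusted p = 0.0692). Among 29 other genes of the plasmin system and serpins, SERPINA1 (alpha-1-antitrypsin) was higher on 1 of 3 probe sets (0.50, adjusted p = 0.0253). Its signals there were under the reference 95th percentile. The other SERPINA1 probe sets gave -0.05 and -0.01 at means under the reference median.

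The remaining calls fell in the list of 36 cell surface serine proteases, their inhibitors and activators. TFPI2, a Kunitz inhibitor of plasmin, read 8.43, 8.41 and 8.44 with empty vector and 9.01, 9.23 and 9.09 with SH3GL2 on its brighter probe set. It rose by 0.68 (standard error 0.08, limma adjusted p = 0.000149), and by 0.47 on the other (adjusted p = 0.00795). SLPI, which blocks leukocyte elastase and cathepsin G, read 7.69, 7.59 and 7.21 against 8.15, 8.37 and 8.41. Its groups did not overlap, and it rose by 0.81 (standard error 0.12, adjusted p = 0.00136). PI3, or elafin, another elastase inhibitor, rose by 0.81 on 1 of 2 probe sets (adjusted p = 0.00207) at signals under the reference 95th percentile. Another Kunitz inhibitor, TFPI, did not pass. Every SH3GL2 array was lower on its 2 brightest probe sets (-0.26, adjusted p = 0.157, and -0.22, adjusted p = 0.103). On its dimmer probe sets the groups overlapped, with log2 fold changes of -0.21, -0.05 and 0.15. In this list of 57 probe sets, 4 more had an unadjusted p under 0.05, 2 higher and the 2 brightest of TFPI lower. Over all probe sets, with called ones included, 15.9% had such a p.

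In the same list ANPEP, the membrane aminopeptidase N, read 10.14, 10.23 and 10.24 against 9.72, 9.90 and 9.72. Every SH3GL2 array was lower, and ANPEP fell by 0.42 (standard error 0.07, limma adjusted p = 0.00282). HGF, the ligand of MET that matriptase can activate, was higher on 1 of 5 probe sets (0.53, adjusted p = 0.0106) with both means under the reference median. PRSS3, or mesotrypsin, was higher on both probe sets (0.38 and 0.34, adjusted p = 0.0158 and 0.0314). Other trypsinogen genes are close to it in sequence, so whether these probe sets read PRSS3 alone is uncertain.

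**Figure D5:**
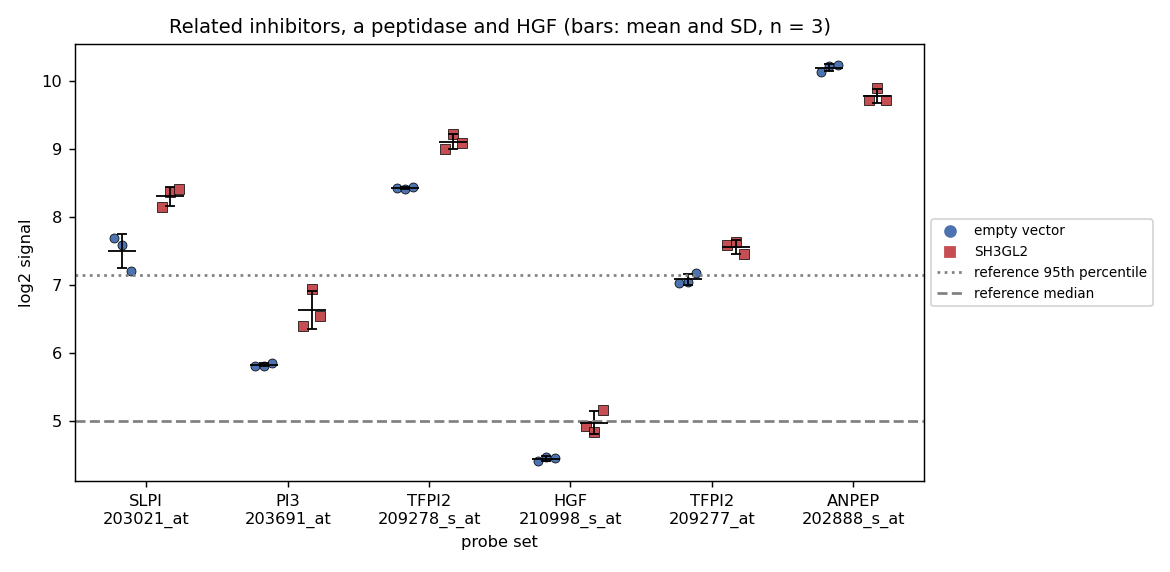
Log2 signal (vertical axis) in each array of 6 called probe sets of SLPI, PI3, TFPI2 (2 probe sets), HGF and ANPEP, empty vector beside SH3GL2, with mean and SD (n = 3) and the reference median and 95th percentile as lines. The groups do not overlap on any of them, ANPEP alone is lower with SH3GL2, and the HGF means lie under the reference median.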

How the data were processed

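Total RNA of SUM159 cells was profiled on Affymetrix U133A 2.0 arrays, 6 in all with 3 for each transfectant, that were scanned with GCOS software. The submitters' processing notes name MAS5 without a version. The authors deposited 1 value per probe set and array on a log2 scale. That the base is 2 follows from the range of the values and the fold the study prints for another gene. How arrays were scaled to each other is not given in the sources used here.

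Values were used as deposited. Of 22277 probe sets 62 controls were left out. The platform annotation gave 1 symbol to 19064, several to 1043 and none to 2108, and only probe sets with 1 symbol were used for named genes. All 44 member symbols matched RefSeq. The groups were compared with limma 3.58.1 in R 4.3.3 (lmFit, eBayes with trend, two-sided), adjusted by Benjamini-Hochberg over 22215 probe sets, and an adjusted p under 0.05 was taken as the threshold. The script was tested on simulated data. Errors beside means are SD (n = 3), and standard errors are those of limma. Figures were drawn with matplotlib 3.10.9. Promoters are those of RefSeq on GRCh38.p14.

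A member was given array by array where a probe set passed an adjusted or unadjusted p of 0.05, where its groups did not overlap with a change of at least 1.25-fold, or where its class had no higher mean. For a gene with several probe sets the one with the highest mean stood for the gene. Of the other lists, up to 5 genes past the threshold were named by adjusted p, and PRSS3 was added after its values were seen. The members and lists were chosen with earlier results of these data known. The alternatives covered scaling, offset and floor, filtering, variance models, analysis of variance, a replicate block, leaving out each array, and stricter thresholds. The number of arrays limits the precision.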

Additional observations from a re-analysis of the deposited data

How the results depend on the processing

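Among the called members, CTSC passed under all 18 alternatives. PLAT was lost only under the analysis of variance (adjusted p = 0.0752), and CTSH also under a 1.5-fold minimum. CSTA was lost with signals floored at the reference median (adjusted p = 0.112) and under the analysis of variance (0.205), and the cause was not tested. ADAM9 and ADAMTS1 were lost with that floor (0.287 and 0.0864) and under the analysis of variance (0.374 and 0.122), ADAM9 also without a variance trend (0.127), and both TIMP3 probe sets under the analysis of variance (0.172 for 201150_s_at and 0.104 for 201147_s_at). With the floor the log2 fold changes of CSTA (0.75), ADAM9 (-0.37) and ADAMTS1 (-0.33) were unchanged, so only their p moved, whereas those of TIMP3 shrank. No change reversed, and under quantile normalization and median centring all 8 called probe sets kept their direction. Calls also fell over all 22215 probe sets, from 441 higher and 485 lower as reported. They were 140 and 165 with the floor, 33 and 44 by analysis of variance, and 270 and 327 without a variance trend. Leaving out SH3GL2 replicate 3 gave 184 and 296. Losses under these settings were thus not particular to the members. The counts of member probe sets higher and lower (4 and 4 as reported, the lower from 3 genes) changed between settings. So did those of related probe sets (8 higher and 1 lower). In what follows, members stands for member probe sets. With the floor, members lower were 0, related higher 1 and related lower 0. The analysis of variance gave 1 and 0 for members and 0 and 0 for related probe sets. In the brighter part of the probe sets, ranked by mean over the 6 arrays, members lower were 2, since both TIMP3 probe sets were left out, and related lower were 2. With all probe sets of a gene averaged, related genes higher were 4 and lower 2. At an adjusted p under 0.01, members lower were 2, both of them TIMP3 probe sets, and related higher 4. With at least a 1.5-fold change, members lower were 2, related higher 3 and related lower 0. Without 1 array at a time, members higher ran from 4 to 5. Members lower ran from 2 to 3, with 3 without SH3GL2 replicate 1 and 2 without any other array. Related higher ran from 4 to 8, with 4 without SH3GL2 replicate 3 and 5 without empty vector replicate 2.

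The groups share replicate numbers. Deviations of same-numbered arrays from their group means correlated at -0.01, 0.13 and 0.15. Those of arrays with unlike numbers correlated at -0.155 to 0.02. The values for replicates 2 and 3 leaned toward pairing and that for replicate 1 did not, so pairing was not established. With the replicate number as a block, 4 member probe sets were higher and 4 lower, and 9 related probe sets were higher and 1 lower. Signal over background limits the 6 members with all means under the reference median (MMP1, MMP3, MMP10, MMP13, ADAMTS5 and SPINT2).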
